A study of Mus musculus with 48 samples.

Results

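Genes of thyroid hormone transport, activation and response were read in the liver of 24 mice of 11 weeks of age. The set named 9 genes (*Ttr*, *Serpina7*, *Dio1*, *Thra*, *Thrb*, *Ncor1*, *Hr*, *Thrsp* and *Klf9*), put together by their role. All probe sets that the array annotation gave to exactly 1 of these genes were taken, and the probe set with the highest mean over the 24 arrays was the main readout of its gene. In the table of 45141 probe sets, 14 probe sets covered 7 of the 9 genes, out of 17097 genes named in all. *Serpina7* was not named in that table and was read from a separate table of values per gene made from the same arrays. *Ncor1* was not named in either table and was not analysed here.

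The study asked whether rapamycin, an inhibitor of the kinase mTOR, acts on a short-lived mouse mutant the way dietary restriction does. The mutants were Ercc1∆/- mice, which carry 1 truncated and 1 disrupted allele of the gene for a DNA repair nuclease subunit, in the whole body. They received AIN93G diet with 14 ppm rapamycin freely (Rapa 14 ppm, n = 4), 30% less food (DR 30%, n = 5) or AIN93G diet freely (Control, n = 5). Wild-type littermates received 30% less food (WT-DR, n = 5) or AIN93G diet freely (WT-Control, n = 5). All mice were F1 hybrids of C57BL6J and FVB. Restriction began at 7 weeks of age and was complete from 9 weeks, with food given just before the dark period. The age at which these mice were put on rapamycin and the hour at which livers were taken were not given in the sources used here.

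Values are log2 intensities, normalized by the authors, so a difference of 1 is a doubling. The arrays had medians of 4.16 to 4.21, and those of 1 group correlated at r = 0.991 to 0.996 across probe sets. *Ercc1* itself, as a check of the genotype labels, lay at 5.01 to 5.28 in Rapa 14 ppm, 4.77 to 5.29 in DR 30% and 5.26 to 5.47 in Control, against 5.99 to 6.46 in WT-DR and 6.57 to 6.85 in WT-Control. The hepatocyte markers were all high (6 of 6 measured, with a mean per mouse of 13.10 to 13.28 over the groups). Of the thyroid gland markers, 3 of 4 were measured with a mean per mouse of 3.50 to 3.87, below every array median. In the table of probe sets every array except those of Rapa 14 ppm is labelled as re-analysed, and in the values per gene all are, those of Rapa 14 ppm once and the others for a second time, so diet and any difference in array handling cannot be told apart in the comparisons of Rapa 14 ppm. Groups were compared in 1 linear model with limma, with Benjamini-Hochberg adjustment over all probe sets, and a gene was called at an FDR under 0.05 with a fold change of at least 1.5.

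Thyroid hormone circulates mostly as thyroxine, bound to carrier proteins that the liver secretes. Type 1 deiodinase, made in liver, kidney and thyroid, removes an iodine from thyroxine to give the active hormone, and also clears inactive forms. The active hormone binds nuclear receptors, of which the β form predominates in hepatocytes, and these switch target genes on or off with the help of corepressors and coactivators. In rodents, fasting and illness are known to lower both the circulating hormone and hepatic type 1 deiodinase, and *Dio1* is itself a target that the hormone induces.

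Over the 7 genes with probe sets, *Dio1* held 6 of the 12 calls over the 11 comparisons. Beside each count stands the share of all probe sets, although each gene was read at its probe set of highest mean. At 1 such probe set per gene, 1.85% of all genes were higher and 1.22% lower in DR 30% vs Control. In DR 30% vs Control 1 gene was called (*Dio1*, lower), where 2.44% of all probe sets were called, and in WT-DR vs WT-Control 1 was called (*Dio1*, lower) beside 6.04%. In Control vs WT-Control 1 was called (*Dio1*, lower; 2.52% of probe sets), and likewise in Rapa 14 ppm vs WT-Control (*Dio1*, lower; 3.51%). In DR 30% vs WT-Control 3 were called (*Dio1* and *Thrb* lower, *Thra* higher; 5.63%), in DR 30% vs WT-DR 2 (*Dio1* and *Thrsp*, both lower; 3.82%) and in Rapa 14 ppm vs DR 30% 1 (*Thra*, lower; 1.61%). None of the 7 was called in Rapa 14 ppm vs Control by limma, where 0.031% of probe sets were called and 1 gene, *Dio1*, had an unadjusted p under 0.05. *Thrsp*, lower, was the 1 gene called in Control vs WT-DR (7.26%) and in Rapa 14 ppm vs WT-DR (6.81%). None was called for the interaction, the difference of DR 30% from Control less that of WT-DR from WT-Control (0.802% of probe sets called, 0 of the 7 at an unadjusted p under 0.05). The median log2 fold change of the 7 lay between -0.12 in DR 30% vs WT-Control and 0.04 in the interaction, beside medians of all genes of -0.03 to 0.02. The comparisons of Rapa 14 ppm and DR 30% with Control share the Control mice, 4 comparisons share the WT-Control mice and 3 share the WT-DR mice as the group set against.

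**Figure D1:**
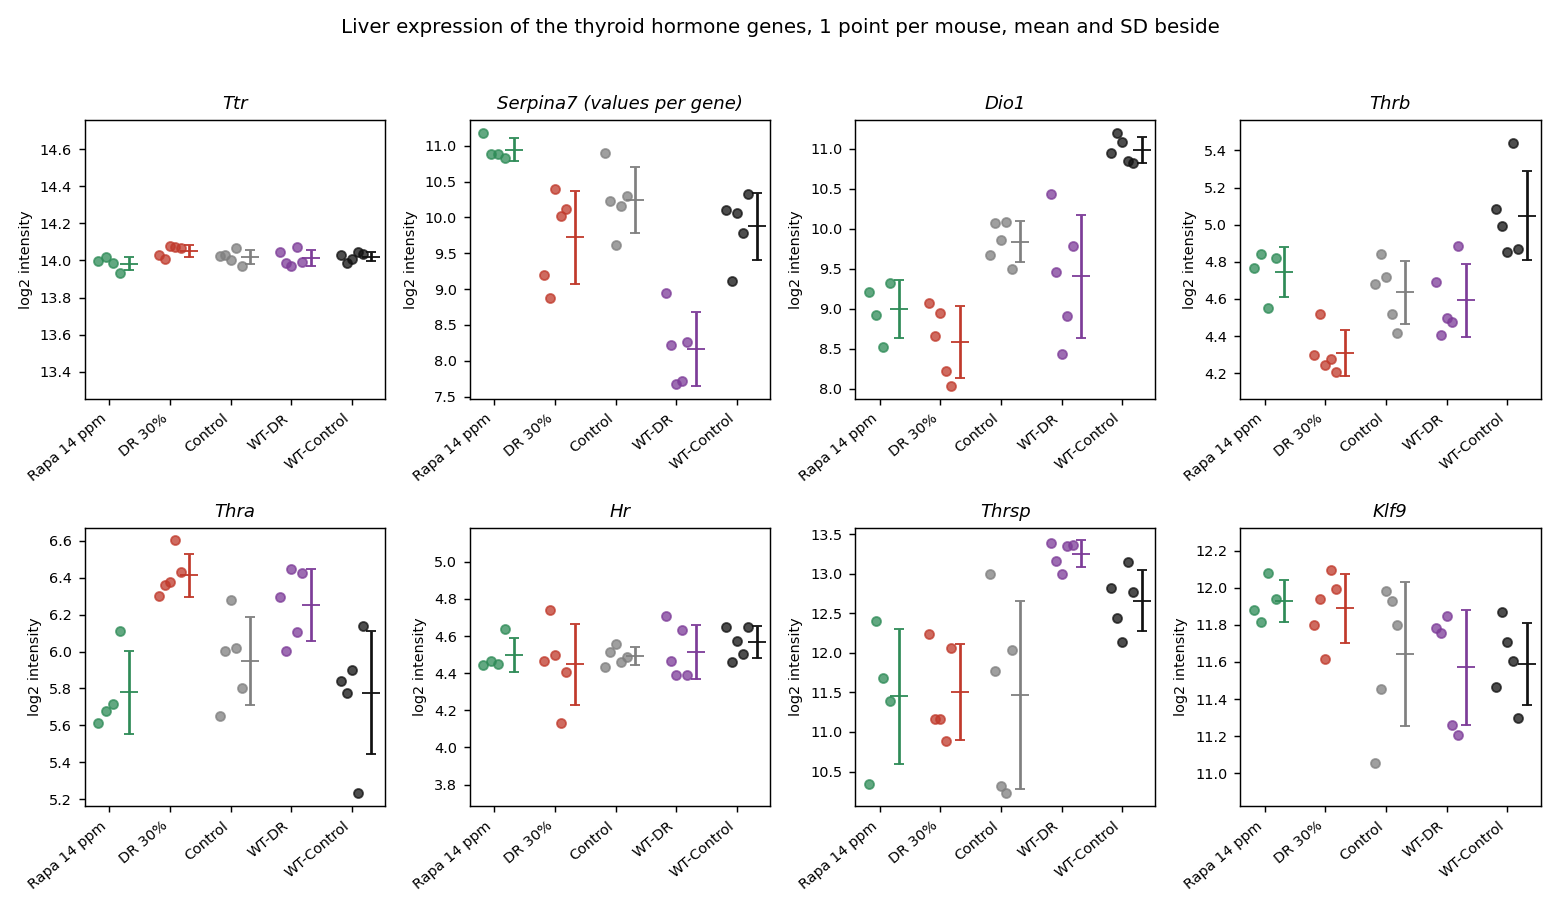
Log2 intensity (vertical axis, each gene on its own scale) of the 8 measured thyroid hormone genes in the 5 groups, 1 point per mouse, with the group mean and SD (bar) beside the points. All 4 Rapa 14 ppm and all 5 DR 30% mice lie below the 5 Control mice in *Dio1*, and the 5 WT-DR mice lie below the other groups in *Serpina7* but for 1 DR 30% mouse at 8.88, while *Ttr* stays between 13.93 and 14.08.

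Of the carriers, transthyretin (*Ttr*, on chromosome 18) was the same in all groups to within a few hundredths of a log2 unit. Its main probe set averaged 13.98 ± 0.04 in Rapa 14 ppm (SD, n = 4), 14.05 ± 0.03 in DR 30%, 14.02 ± 0.04 in Control, 14.01 ± 0.04 in WT-DR and 14.02 ± 0.02 in WT-Control (n = 5 each). DR 30% exceeded Control by 0.03 (95% confidence interval -0.05 to 0.12) and WT-DR differed from WT-Control by -0.01 (-0.09 to 0.08). It stood at the 99.99th percentile of all probe sets, near the top of the scale at 14.51, and saturation there was not tested.

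Thyroxine-binding globulin (*Serpina7*, chrX:139079249-139085236, in RefSeq on GRCm38.p6) was the carrier that moved, and it fell with restriction in wild-type liver. In the values per gene it read 8.95, 8.22, 7.68, 7.72 and 8.27 in WT-DR, against 10.10, 9.12, 10.06, 9.78 and 10.33 in WT-Control, with no overlap (6.61% of probe sets in the lower direction). The difference was -1.71 on the log2 scale (SE 0.28, limma adjusted p = 1.1e-04), so that WT-Control stood 3.27-fold above WT-DR, in a comparison where 5.75% of the values per gene were called. Macrophage and Kupffer cell markers were also lower there, with 2 of 6 called (*Adgre1* at -0.93 and *Clec4f* at -0.71), where 3.52% of all genes were lower. Their list mean was 6.81 to 7.43 per mouse in WT-DR, against 7.25 to 7.67 in WT-Control. Of 5 sinusoidal endothelial markers 1 was lower (*Clec4g* at -0.70), with list means of 7.38 to 8.11 in WT-DR, against 7.79 to 7.99 in WT-Control. The part of these cells in the falls of *Serpina7* and *Dio1* in WT-DR was not tested.

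In the mutant the same comparison was not called. *Serpina7* read 9.20, 8.88, 10.39, 10.02 and 10.12 in DR 30%, against 10.90, 10.23, 9.62, 10.15 and 10.30 in Control, a difference of -0.52 (SE 0.28, adjusted p = 0.255) with overlapping mice. The DR 30% mice at 9.20 and 8.88 lay below every Control mouse, and the other 3 lay within the range of Control. The interaction was 1.19 (95% confidence interval 0.36 to 2.02, adjusted p = 0.139, with 1.07% of the values per gene called) and was called only without WT-DR mouse 421 (1.39, adjusted p = 0.0495). DR 30% stood above WT-DR by 1.56 (SE 0.28, adjusted p = 4.3e-04; 4.55% called), with 1 overlapping pair, since the lowest DR 30% mouse at 8.88 lay under the highest WT-DR mouse at 8.95. Against WT-DR, Control stood 2.08 higher (adjusted p = 6.4e-06, with 8.43% of the values per gene called). Rapa 14 ppm stood 2.78 above WT-DR (adjusted p = 4.4e-07, with 7.99% called). Control and Rapa 14 ppm differ from WT-DR in diet as well as genotype.

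Rapamycin-fed mutants had the highest *Serpina7*. They read 11.18, 10.89, 10.88 and 10.83, above every WT-Control mouse (no overlap in the higher direction in 6.07% of probe sets) and overlapping only Control mouse 321 at 10.90. Against Control the difference was 0.71 (SE 0.30, unadjusted p = 0.0283, adjusted p = 0.384). Against WT-Control it was 1.07 (adjusted p = 0.0178; 4.26% called) and against DR 30% 1.23 (adjusted p = 0.0132; 2% called). Both calls rested on single mice, since without Rapa 14 ppm mouse 535 the values were 0.99 (adjusted p = 0.055) and 1.15 (adjusted p = 0.0519), and without WT-Control mouse 402 the difference from WT-Control was 0.88 (adjusted p = 0.0541). In descending order of group means the levels ran Rapa 14 ppm (10.95 ± 0.16), Control (10.24 ± 0.46), WT-Control (9.88 ± 0.47), DR 30% (9.72 ± 0.65) and WT-DR (8.17 ± 0.52; SD). Of the neighbours in this order, DR 30% and WT-DR differed by the test above, while Rapa 14 ppm vs Control, Control vs WT-Control (0.36, adjusted p = 0.459) and DR 30% vs WT-Control (-0.16, adjusted p = 0.716) did not pass it.

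The start of *Serpina7* is shown because its RNA changed most among the carriers. The window, 1 of 2 overlapping windows listed for this gene, runs from 250 bases before to 50 after the start site (chrX:139085170-139085469, minus strand), with the letters TATAAA in capitals, at position -27 from the start.
Serpina7: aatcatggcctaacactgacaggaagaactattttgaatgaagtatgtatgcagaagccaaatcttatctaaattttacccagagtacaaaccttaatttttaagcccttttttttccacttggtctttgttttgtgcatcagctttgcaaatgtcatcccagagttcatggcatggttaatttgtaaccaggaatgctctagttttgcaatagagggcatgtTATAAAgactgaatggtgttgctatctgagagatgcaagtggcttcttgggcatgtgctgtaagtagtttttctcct
TATAAA was found in 13.6% of 32851 promoter windows of RefSeq. Neither the thyroid receptor half-site AGGTCA nor the E-box CACGTG occurred in this window on either strand. In the other window listed for *Serpina7*, TATAAA lay at -10 from the start, so its position depends on the start chosen.

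*Dio1*, the type 1 deiodinase (chr4:107291465-107307168), was lower in every group than in WT-Control. WT-DR mouse 421 at 10.43 was the highest mouse outside WT-Control, below the 5 WT-Control mice at 10.95, 11.20, 11.08, 10.84 and 10.82. It was lower with restriction in both genotypes. DR 30% mice read 9.07, 8.66, 8.95, 8.23 and 8.04, against 9.67, 10.07, 9.85, 10.08 and 9.50 in Control, a log2 fold change of -1.25 (SE 0.26, limma adjusted p = 0.00365) with no overlap. Control thus stood 2.37-fold above DR 30%. WT-DR mice read 10.43, 9.46, 8.44, 8.91 and 9.78 and lay -1.57 from WT-Control (SE 0.26, adjusted p = 1.6e-04), which is 2.98-fold higher in WT-Control. The spread of WT-DR (SD 0.77) was the widest of the 5 groups and that of WT-Control (SD 0.16) the narrowest. No overlap in the lower direction occurred in 3.14% of all probe sets in DR 30% vs Control and in 6.61% in WT-DR vs WT-Control. In Rapa 14 ppm and DR 30% vs WT-Control the shares were 6.09% and 6.87%. The interaction was 0.33 (95% confidence interval -0.44 to 1.10, adjusted p = 0.765), so a difference of restriction between genotypes was not detectable with this number of arrays.

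The mutation alone was also accompanied by less *Dio1*. Control lay -1.14 from WT-Control (SE 0.26, adjusted p = 0.00768), which is 2.21-fold higher in WT-Control, again with no overlap (3.14% of probe sets in the lower direction). Neutrophil markers moved in the same comparison, with 2 of 3 higher in Control (*S100a8* by 1.48 and *S100a9* by 1.47, on the log2 scale), where 2.49% of all genes were higher. Their list mean was 4.62 to 5.16 per mouse in Control, against 3.82 to 3.97 in WT-Control. Of these 3 markers, 2 were also higher than in WT-Control in Rapa 14 ppm and in DR 30% (3.01% and 4.85% of all genes). Of 4 exocrine pancreas markers, 1 was higher in Control (*Amy2a5* by 1.57) and 2 in DR 30% (*Amy2a5* by 1.93 and *Cela2a* by 0.88) than in WT-Control, with list means of 4.20 to 4.76 per mouse in DR 30% and 4.08 to 4.42 in Control, against 3.71 to 3.80 in WT-Control. The macrophage marker *Vsig4* was higher in Control by 0.59, as 1 of 6 such markers. Another of the 6, *Marco*, was higher than in WT-Control in DR 30% (2.01) and in Rapa 14 ppm (1.17). In DR 30% vs Control 1 marker of any list was called, the macrophage marker *Marco* (1.11), where 1.85% of all genes were higher. The part of these cells in the *Dio1* results was not tested. In whole liver, fewer cells of a type and less RNA per cell cannot be told apart.

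With rapamycin *Dio1* read 9.21, 8.92, 8.53 and 9.33, all below the lowest Control mouse. The difference from Control was -0.84 (SE 0.28, 95% confidence interval -1.41 to -0.26) with an unadjusted p of 0.00639, and it did not pass the adjustment (adjusted p = 0.294). Mice that did not overlap in the lower direction were found for 1.57% of probe sets in this comparison. Leaving out any 1 mouse kept the adjusted p at 0.16 or above. Against WT-Control, Rapa 14 ppm was at -1.98 (SE 0.28, adjusted p = 4.6e-05) and DR 30% at -2.39 (SE 0.26, adjusted p = 6.7e-07), which is 3.95-fold and 5.24-fold higher in WT-Control.

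In order of group means *Dio1* ran from DR 30% (8.59 ± 0.45) through Rapa 14 ppm (9.00 ± 0.36), WT-DR (9.40 ± 0.77) and Control (9.83 ± 0.26) to WT-Control (10.98 ± 0.16; SD). Only the step between Control and WT-Control passed the test among these neighbours. Rapa 14 ppm and DR 30% differed by 0.41 (adjusted p = 0.5), Rapa 14 ppm and WT-DR by -0.41 (adjusted p = 0.372) and Control and WT-DR by 0.43 (adjusted p = 0.279). The last was called without WT-DR mouse 421 (0.69, adjusted p = 0.0381). DR 30% and WT-DR, which are not neighbours, differed by -0.82 (SE 0.26, adjusted p = 0.0433) with overlapping mice, and this call was lost in 11 of 32 alternatives. It was lost without Rapa 14 ppm mouse 536, DR 30% mouse 365, 368 or 369, WT-DR mouse 421, 422 or 425, or WT-Control mouse 403, with values of -0.83 to -0.56 and adjusted p of 0.0501 to 0.124.

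The *Dio1* start (chr4:107307119-107307418, minus strand) is shown because this gene was called in more comparisons than any other member with probe sets, with the same motifs searched on both strands.
Dio1: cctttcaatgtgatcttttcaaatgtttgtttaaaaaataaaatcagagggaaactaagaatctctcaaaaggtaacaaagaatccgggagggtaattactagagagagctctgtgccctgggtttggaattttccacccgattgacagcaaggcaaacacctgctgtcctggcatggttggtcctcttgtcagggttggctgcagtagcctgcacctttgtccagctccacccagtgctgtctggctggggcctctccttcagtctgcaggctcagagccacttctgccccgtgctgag
It held neither AGGTCA, found in 16.3% of all promoter windows, nor a direct repeat of it with 4 bases between (0.0152%), nor CACGTG (7.15%), nor TATAAA, so no letters are in capitals. The genes whose levels followed *Dio1* most closely over the 24 mice were *Dock8* (r = 0.91), *Gna14* (r = 0.91) and *Pard3* (r = 0.88), out of 10338 genes whose mean lay above the median probe set. With the group means taken off, these r were 0.71, 0.64 and 0.36. The mice share arrays and groups, so these r are a description.

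**Figure D2:**
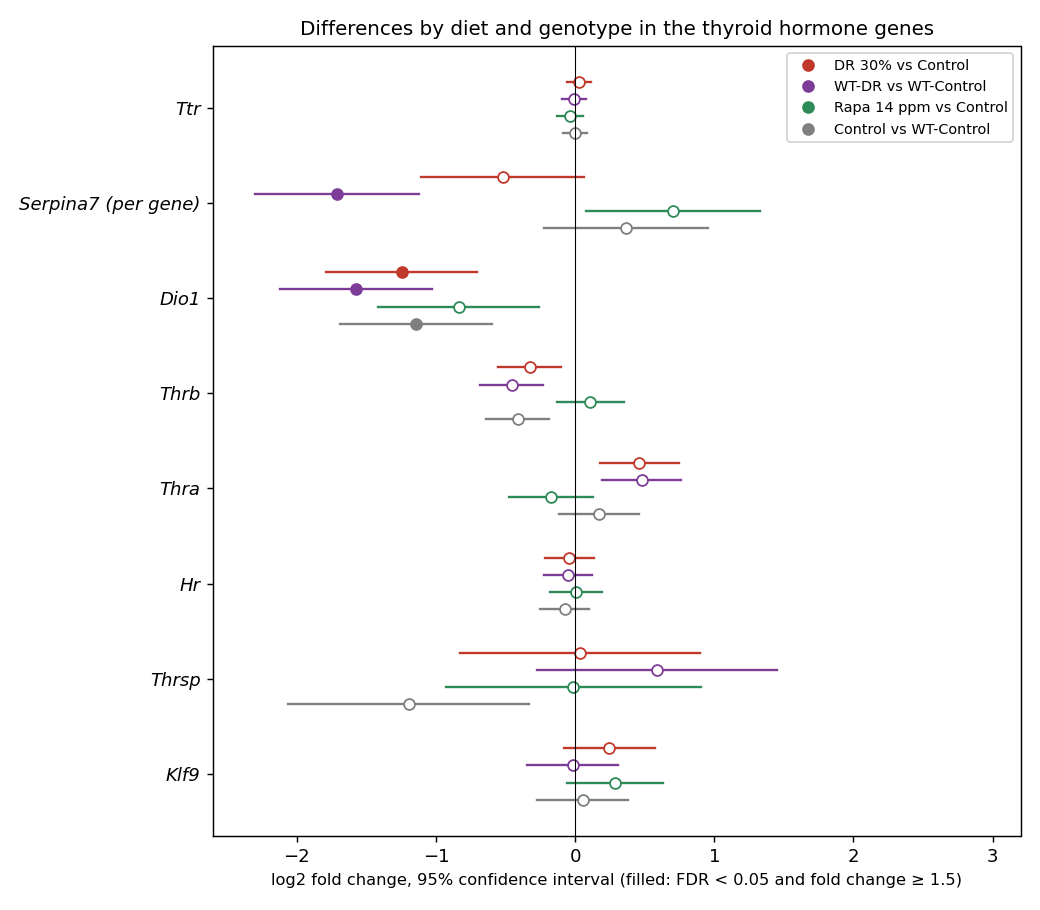
Log2 fold changes (horizontal axis) with 95% confidence intervals of the 8 measured genes in 4 comparisons, coloured as in the key, filled where called. *Dio1* lies left of 0 in all 4 and is filled in 3, and *Serpina7* is filled in WT-DR vs WT-Control at -1.71.

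The receptor genes differed in opposite directions between DR 30% and WT-Control. *Thrb* (chr14:17659225-18040097), which encodes the receptor form that predominates in hepatocytes, read 4.30, 4.52, 4.25, 4.28 and 4.21 in DR 30%, against 5.08, 4.99, 4.85, 5.44 and 4.87 in WT-Control. The groups did not overlap (6.87% of probe sets in the lower direction), and the log2 fold change was -0.74 (SE 0.11, limma adjusted p = 3.3e-05), 1.67-fold higher in WT-Control. In the values per gene the difference was -0.58 (adjusted p = 2.3e-04), just under a fold change of 1.5.

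The remaining differences of *Thrb* were smaller than 1.5-fold. WT-DR (4.69, 4.41, 4.50, 4.47 and 4.89) lay -0.46 from WT-Control (adjusted p = 0.00431) and Control (4.68, 4.84, 4.72, 4.52 and 4.42) lay -0.41 from it (adjusted p = 0.0202). Both passed the FDR but not the fold change. DR 30% vs Control was -0.33 (adjusted p = 0.0642) and overlapped in the DR 30% mouse at 4.52. Rapa 14 ppm mice (4.77, 4.84, 4.55 and 4.82) overlapped Control (0.11, adjusted p = 0.818). They lay above all DR 30% mice (0.44, adjusted p = 0.0285, at an FDR under 0.05 but under 1.5-fold). No overlap in the higher direction occurred in 3.57% of probe sets in Rapa 14 ppm vs DR 30%. The interaction was 0.13 (95% confidence interval -0.19 to 0.45). With a mean of 4.66 over the 24 arrays *Thrb* stood at the 56.3rd percentile of probe sets, little above the array median.

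Both starts of *Thrb* are shown, since this is the receptor that fell and each holds a motif that was searched. Window 1 (chr14:17660710-17661009, plus strand) has AGGTCA in capitals at position -184 from the start, and window 2 (chr14:17981394-17981693, plus strand) has CACGTG at -193 and TATAAA at -167.
Thrb window 1: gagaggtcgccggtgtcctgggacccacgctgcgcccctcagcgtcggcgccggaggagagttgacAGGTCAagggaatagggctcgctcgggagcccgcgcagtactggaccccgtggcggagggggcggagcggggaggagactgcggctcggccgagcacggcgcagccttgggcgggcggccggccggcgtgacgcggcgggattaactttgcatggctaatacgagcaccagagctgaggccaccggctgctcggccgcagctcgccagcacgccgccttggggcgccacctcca
Thrb window 2: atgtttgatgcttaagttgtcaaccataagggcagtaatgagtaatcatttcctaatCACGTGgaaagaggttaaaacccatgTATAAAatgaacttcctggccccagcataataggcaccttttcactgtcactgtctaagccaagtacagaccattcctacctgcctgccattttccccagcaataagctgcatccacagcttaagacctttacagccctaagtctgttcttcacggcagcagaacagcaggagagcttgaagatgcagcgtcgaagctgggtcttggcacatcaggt
A match of 6 letters is a description of the window and not a binding site. Of the members called, *Dio1* and *Thrsp* had no match to any of the 4 motifs, and the starts of *Thra* and *Hr* were not analysed here.

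*Thra* (chr11:98740776-98769006), the other receptor gene, was higher in DR 30% at its main probe set. It read 6.30, 6.36, 6.38, 6.60 and 6.43 in DR 30%, against 5.84, 5.77, 5.90, 5.23 and 6.14 in WT-Control, with no overlap (7.84% of probe sets in the higher direction). The log2 fold change was 0.64 (SE 0.14, limma adjusted p = 0.00197), 1.55-fold higher in DR 30%. Without WT-Control mouse 404, the lowest of all, it was 0.50 (adjusted p = 0.00651) and below 1.5-fold. The call was lost in 5 of 33 alternatives, among them another quantile normalization and the mean of all *Thra* probe sets.

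The difference with restriction was close in both genotypes and below 1.5-fold. DR 30% exceeded Control (5.65, 6.0, 6.28, 6.02 and 5.80) by 0.46 (adjusted p = 0.0375), and WT-DR (6.29, 6.0, 6.45, 6.11 and 6.42) exceeded WT-Control by 0.48 (adjusted p = 0.0165). Both passed the FDR, and the interaction was -0.02 (95% confidence interval -0.42 to 0.39). Rapa 14 ppm mice (5.61, 5.68, 5.72 and 6.11) were all below DR 30% (-0.63, SE 0.15, adjusted p = 0.0122, with 4.88% of probe sets not overlapping in the lower direction), a call lost without Rapa 14 ppm mouse 535 (-0.58, adjusted p = 0.0536). They did not differ from Control by the test (-0.17, 95% confidence interval -0.48 to 0.13, adjusted p = 0.764).

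The second *Thra* probe set did not follow the first. It averaged 5.45 ± 0.11 in Rapa 14 ppm (SD, n = 4), 5.50 ± 0.04 in DR 30%, 5.58 ± 0.22 in Control, 5.63 ± 0.18 in WT-DR and 5.56 ± 0.16 in WT-Control (n = 5 each), and was not called in any of the 11 comparisons. In the values per gene DR 30% exceeded WT-Control by 0.29 (adjusted p = 0.0573). In RefSeq the span of *Thra* overlaps that of the clock gene *Nr1d1* (chr11:98767932-98775377), which lies on the opposite strand, by 1075 bases. *Nr1d1*, looked up after these values were seen, averaged 6.78 in DR 30% and 6.02 in Control in the values per gene, a difference of 0.76 (adjusted p = 0.0356), and WT-DR differed from WT-Control by 0.04 (adjusted p = 0.923). Where the *Thra* probes lie relative to this overlap was not tested.

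**Figure D3:**
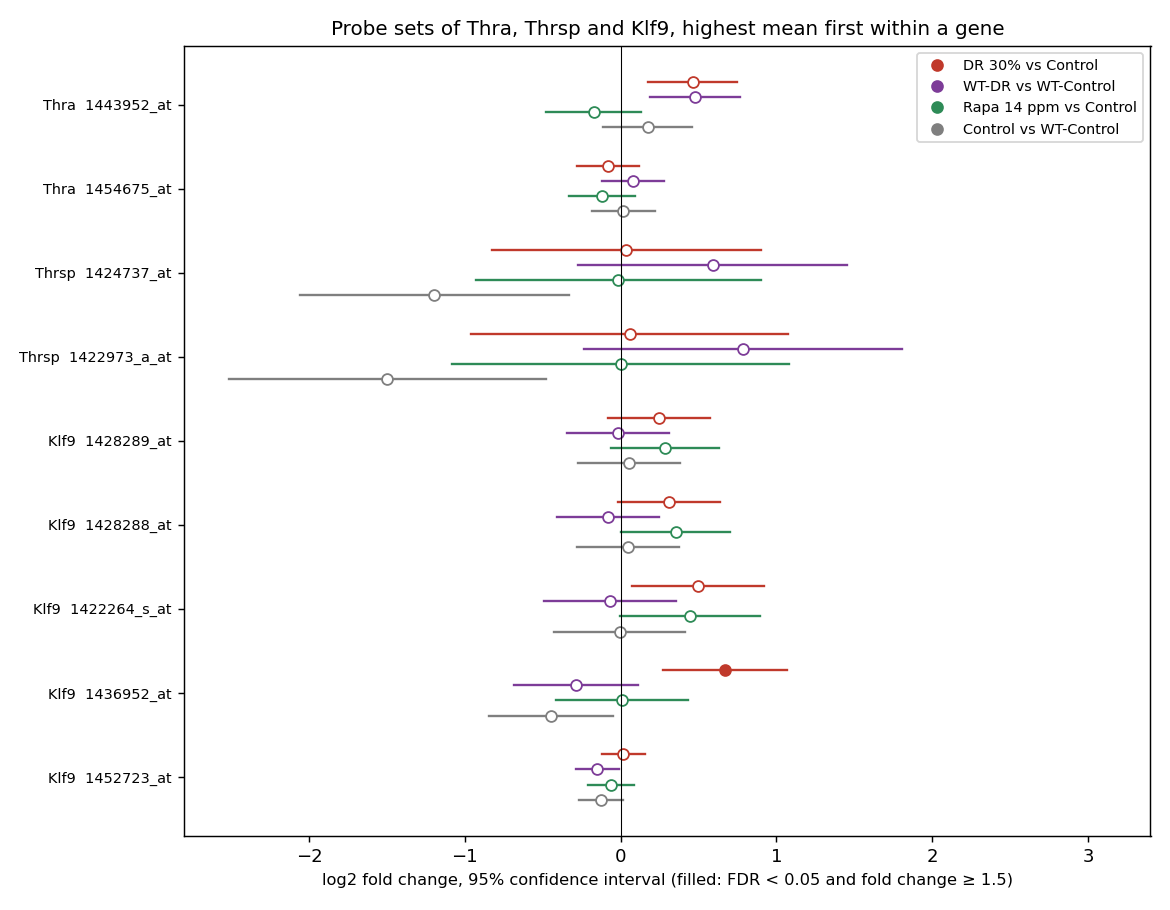
Log2 fold changes (horizontal axis) with 95% confidence intervals of each probe set of *Thra*, *Thrsp* and *Klf9* in 4 comparisons, the probe set with the highest mean first within each gene, filled where called. The first *Thra* probe set lies right of 0 under restriction in both genotypes and the second at -0.08 and 0.08, both *Thrsp* probe sets lie left of 0 in Control vs WT-Control, and 1 of 5 *Klf9* probe sets is filled in DR 30% vs Control.

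The corepressor gene *Hr* (hairless, chr14:70554056-70573548), whose protein binds thyroid receptors and is best known in brain and skin, was near the array median. It averaged 4.50 ± 0.09 in Rapa 14 ppm (SD, n = 4), 4.45 ± 0.22 in DR 30%, 4.49 ± 0.05 in Control, 4.52 ± 0.15 in WT-DR and 4.57 ± 0.08 in WT-Control (n = 5 each). Its largest difference was -0.12 in DR 30% vs WT-Control (95% confidence interval -0.29 to 0.06, adjusted p = 0.353). Its mean over the 24 arrays was at the 54.4th percentile of probe sets.

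Of 15 receptor partners and coregulators, 11 were measured, among them the heterodimer partner *Rxra* and the coactivator *Med1*. None was called by limma in any of the 11 comparisons, while 1 to 7 of the 11 had an unadjusted p under 0.05. The 1 was in Rapa 14 ppm vs Control and in the interaction, where 10.7% and 14.7% of all genes had one, and the 7 in Control vs WT-DR (37.3% of all genes). Their median log2 fold change was between -0.37 in Control vs WT-DR and 0.13 in WT-DR vs WT-Control, beside 0.01 and -0.03 for all genes.

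Of the target genes, *Thrsp* (Spot 14, chr7:97412933-97417550), which promotes hepatic fatty acid synthesis and is induced by both thyroid hormone and carbohydrate, differed by the test with genotype only under restriction, and varied widely between mutants. It read 12.25, 11.16, 11.16, 10.89 and 12.06 in DR 30%, against 13.39, 13.16, 13.00, 13.36 and 13.37 in WT-DR, a log2 fold change of -1.75 (SE 0.42, limma adjusted p = 0.00637) with no overlap and a level 3.36-fold higher in WT-DR. No overlap in the lower direction occurred in 3.61% of probe sets in this comparison.

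The other mutant groups, which differ from WT-DR in diet as well as genotype, also lay below it. Rapa 14 ppm mice read 10.34, 12.40, 11.68 and 11.39, and lay -1.80 from WT-DR (adjusted p = 0.00493; 6.81% of probe sets called). Control mice read 12.99, 11.77, 10.31, 10.22 and 12.04, and lay -1.79 from WT-DR (adjusted p = 0.00282; 7.26% called). Control mice had an SD of 1.19 and ranged between the lowest *Thrsp* of all 24 mice and a value within the range of WT-Control, while WT-DR had an SD of 0.17.

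Against WT-Control (12.83, 12.44, 12.14, 13.15 and 12.77) the same mutants were lower by like amounts, but not called. The differences were -1.21 in Rapa 14 ppm (adjusted p = 0.0856), -1.16 in DR 30% (adjusted p = 0.0525) and -1.20 in Control (adjusted p = 0.0863). Without Control mouse 321 that of Control was -1.58 (adjusted p = 0.013) and that of Rapa 14 ppm was called at -1.21 (adjusted p = 0.0453), and without Rapa 14 ppm mouse 536 that of Rapa 14 ppm was -1.53 (adjusted p = 0.0472). That of DR 30% was called in 12 of 33 alternatives. Within a genotype no difference between diets was called. DR 30% and Control differed by 0.04 (95% confidence interval -0.83 to 0.90), Rapa 14 ppm and Control by -0.01 (-0.93 to 0.90) and WT-DR and WT-Control by 0.59 (-0.27 to 1.45, adjusted p = 0.367), and this last was called when only the groups compared were fitted (adjusted p = 0.0259). These intervals are wide, and the interaction was -0.55 (-1.77 to 0.67, adjusted p = 0.745).

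The second *Thrsp* probe set had the same directions, with DR 30% at -1.44 from WT-Control (adjusted p = 0.041) and at -2.23 from WT-DR (adjusted p = 0.00349). Macrophage and Kupffer cell markers moved in the comparisons with WT-DR as well. Of 6 markers, 5 were higher in DR 30% than in WT-DR (4.22% of all genes), 4 in Control (6.04%) and 4 in Rapa 14 ppm (5.77%). List means per mouse were 7.58 to 8.19 in Rapa 14 ppm, 7.74 to 8.50 in DR 30% and 7.51 to 8.16 in Control, against 6.81 to 7.43 in WT-DR. Of 3 neutrophil markers, 2 were higher in DR 30%, 2 in Control and 1 in Rapa 14 ppm than in WT-DR. Of 4 exocrine pancreas markers 2 were higher in DR 30% and 1 in Control, and of 5 sinusoidal endothelial markers 1 in Control. The part of these cells in the results of *Thrsp* and *Serpina7* was not tested. The genes that followed *Thrsp* most closely over the 24 mice were *C1galt1* (r = 0.88), *Tmem41b* (r = 0.87) and *Cyb5b* (r = 0.87), and with the group means taken off r was 0.78, 0.82 and 0.72.

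*Klf9* (chr19:23141226-23168129), a transcription factor gene that thyroid hormone and glucocorticoids both induce, was not called at its main probe set. It averaged 11.93 ± 0.11 in Rapa 14 ppm (SD, n = 4), 11.89 ± 0.19 in DR 30%, 11.64 ± 0.39 in Control, 11.57 ± 0.31 in WT-DR and 11.59 ± 0.22 in WT-Control (n = 5 each). DR 30% vs Control was 0.25 (95% confidence interval -0.08 to 0.57, adjusted p = 0.395) and WT-DR vs WT-Control -0.02 (-0.34 to 0.31, adjusted p = 0.958).

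Of the 4 other *Klf9* probe sets, 1 was called once. The probe set with the second lowest mean averaged 5.98 ± 0.31 in DR 30%, against 5.31 ± 0.37 in Control (SD, n = 5 each), a difference of 0.67 (SE 0.19, adjusted p = 0.0301) with overlapping mice. The probe set with the lowest mean, 3.10, stood at the 15.3rd percentile of probe sets. *Klf9* was followed most closely by *Cnppd1* (r = 0.86) and *Tns2* (r = 0.82), and these r were 0.87 and 0.81 with the group means taken off.

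Of 10 listed transporters that carry thyroid hormone into cells, 8 were measured. In DR 30% vs Control 2 were higher and 2 lower, where 1.85% of all genes were higher and 1.22% lower, and in WT-DR vs WT-Control 2 were higher and 2 lower (2.85% and 3.52% of all genes). *Slco1a1*, an organic anion transporter of the hepatocyte membrane that takes up thyroxine among many substrates, averaged 11.28 in DR 30% and 12.54 in Control, a log2 fold change of -1.26 (SE 0.15, adjusted p = 1.7e-05). It averaged 10.71 in WT-DR and 12.64 in WT-Control (-1.94, adjusted p = 8.8e-09).

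*Slco1a4*, a related transporter, went the other way. It averaged 11.05 in DR 30% and 9.06 in Control (1.99, adjusted p = 7.4e-06), and 11.44 in WT-DR and 8.92 in WT-Control (2.52, adjusted p = 6.2e-08). Rapa 14 ppm averaged 9.79 and differed from Control by 0.73 (adjusted p = 0.294). *Slc16a10*, a transporter of aromatic amino acids that also carries thyroid hormone, averaged 6.38 in WT-DR and 4.79 in WT-Control (1.59, adjusted p = 2.0e-06), and 5.70 in DR 30% and 4.87 in Control (0.83, adjusted p = 0.00574). *Slco1b2*, a liver uptake transporter, was lower in WT-DR than in WT-Control at -0.60 (adjusted p = 3.6e-04), and *Slco1c1*, a thyroxine transporter best known from brain vessels, averaged 3.42 in DR 30% and 4.16 in Control (-0.74, adjusted p = 0.00344). The level of *Slco1c1* was at or under the array medians in every group mean, and Control exceeded WT-Control, at 3.39, by 0.77 (adjusted p = 0.00239). None of the 8 was called in Rapa 14 ppm vs Control by limma, with 1 at an unadjusted p under 0.05.

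Among genes that bind or inactivate the hormone, 7 of 9 were measured. In WT-DR vs WT-Control 1 was higher and 1 lower (2.85% and 3.52% of all genes). In DR 30% vs Control 1 was lower (1.22% of all genes), and in the interaction 1 was called, in the lower direction (0.228%). *Crym*, whose protein binds the active hormone in the cytosol, averaged 5.36 in WT-DR and 4.13 in WT-Control, a log2 fold change of 1.23 (SE 0.12, adjusted p = 2.3e-07). It averaged 4.42 in DR 30% and 4.01 in Control (0.41, adjusted p = 0.0387). The interaction was called at -0.82 (SE 0.17, adjusted p = 0.0235), so the rise with restriction was smaller in the mutant. In all groups but WT-DR and DR 30% the level was below the array medians. *Ugt2b1*, a glucuronosyltransferase gene, fell by 0.71 on the log2 scale in DR 30% vs Control (adjusted p = 1.7e-04) and by 1.15 in WT-DR vs WT-Control (adjusted p = 8.4e-08). None was called in Rapa 14 ppm vs Control, with 1 at an unadjusted p under 0.05.

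**Figure D4:**
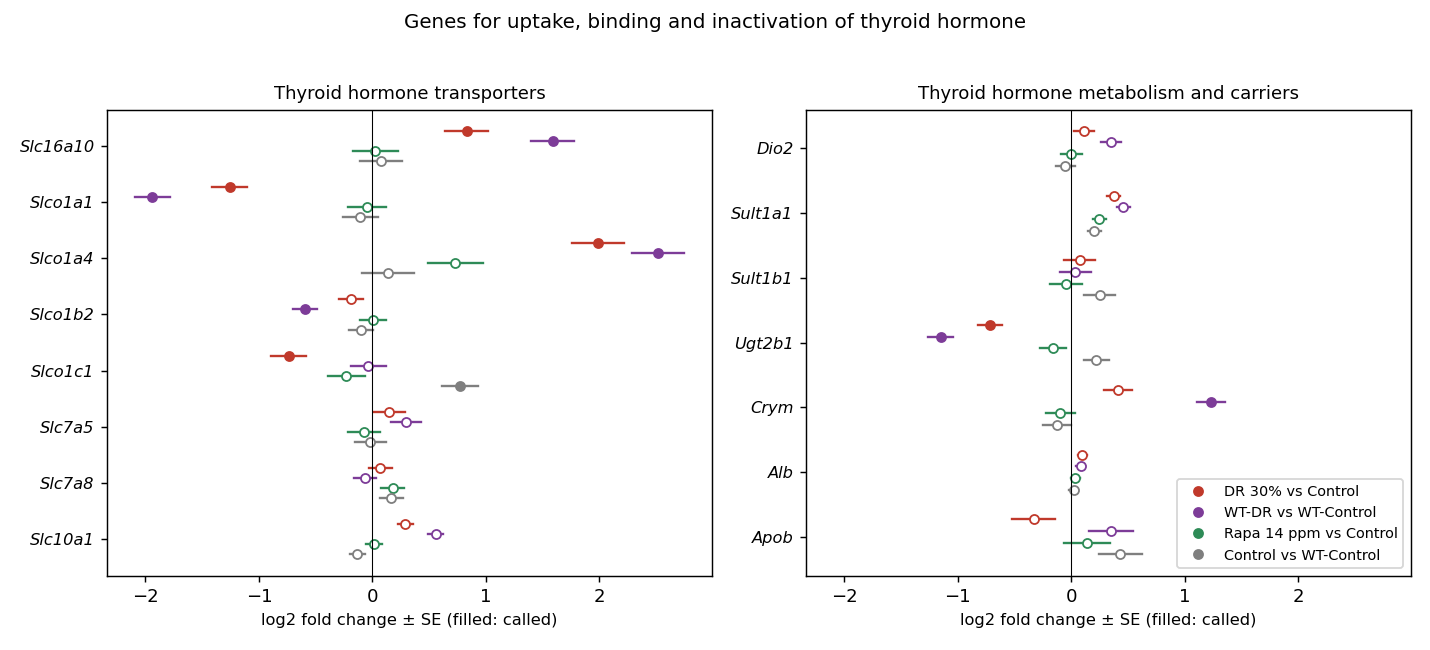
Log2 fold changes (horizontal axis, bars are the standard error) of the 8 measured thyroid hormone transporters (left) and of 7 measured genes of hormone metabolism and binding (right) in 4 comparisons, filled where called. *Slco1a1* lies far left and *Slco1a4* far right of 0 under restriction in both genotypes, and *Crym* is filled in WT-DR vs WT-Control only.

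Of 15 other liver genes that thyroid hormone induces in rodents, 13 were measured, and they did not move one way with restriction in either genotype. In DR 30% vs Control 1 was higher (*Upp2*, 1.46, adjusted p = 0.026) and 1 lower (*Bcl3*, -0.99, adjusted p = 0.00167), where 1.85% of all genes were higher and 1.22% lower, with a median of -0.23 beside -0.01 for all genes. In WT-DR vs WT-Control 3 were higher and 3 lower (2.85% and 3.52% of all genes), with a median of 0.54 beside -0.03. *Cyp7a1*, the rate-limiting enzyme of bile acid synthesis, was higher there by 2.57 on the log2 scale (adjusted p = 2.2e-04), while *G6pc*, the last enzyme of glucose release, was lower at -1.55 (adjusted p = 8.6e-04). Another of the 3 higher genes, *Pck1*, averaged 3.71 in WT-DR and 3.07 in WT-Control, both under the array medians.

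In Control vs WT-Control 1 was lower, *Me1*, the malic enzyme that supplies reducing power for fat synthesis. It averaged 10.36 in Control and 11.42 in WT-Control (-1.06, adjusted p = 0.0235; 1.11% of all genes were lower). In DR 30% vs WT-DR it was at -1.51 (adjusted p = 9.1e-04), and in DR 30% vs Control at 0.09 (adjusted p = 0.906). Against WT-DR, more of the 13 were lower than higher in each mutant group. In Control 7 were lower and 2 higher (3.11% and 6.04% of all genes), with a median of -0.60. In Rapa 14 ppm 5 were lower and 3 higher (3.10% and 5.77%, median -0.67), and in DR 30% 4 and 1 (1.22% and 4.22%, median -0.34). In DR 30% vs WT-Control 4 were lower and 1 higher (2.32% and 4.85%, median -0.55).

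Genes of other signals that reach the same targets moved beside these results. Of 7 measured carbohydrate responsive genes, 5 were lower in DR 30% than in WT-DR (1.22% of all genes), among them *Pklr* (-1.40, adjusted p = 4.8e-04) and *Pnpla3* (-3.63, adjusted p = 6.4e-04), with a median of -1.06. In WT-DR vs WT-Control 3 of the 7 were higher and 0 lower (2.85% and 3.52% of all genes), with a median of 1.06. In DR 30% vs WT-Control 0 were higher and 1 lower (4.85% and 2.32% of all genes). In Control vs WT-Control 0 were called in either direction. Of 7 glucocorticoid responsive genes, 3 were higher in DR 30% vs Control (*Per1*, *Mt1* and *Fkbp5*, by 2.38, 2.35 and 1.51; 1.85% of all genes) and 4 in WT-DR vs WT-Control (2.85%). Of 13 clock genes, 8 were higher and 2 lower in DR 30% vs Control, among them *Cry2* (0.89, adjusted p = 2.3e-04) and *Ciart* (3.53, adjusted p = 7.6e-04), and 8 were higher and 1 lower in WT-DR vs WT-Control. Of all genes, 1.85% were higher and 1.22% lower in DR 30% vs Control, and 2.85% and 3.52% in WT-DR vs WT-Control. The part of feeding, hour or these signals in the levels of *Dio1*, *Thrsp* and *Klf9* was not tested.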

How the data were processed

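The authors measured liver RNA with 1 Affymetrix array (HT MG-430 PM) per mouse. The authors normalized the arrays at arrayanalysis.org, with RMA per the submitters' processing notes (version not given in the sources used here), and the deposited log2 values of 45141 probe sets were used as they stood, with 17306 deposited log2 values per gene of the same arrays as an alternative. Which arrays were normalized together was not given in the sources used here. Of the probe sets, 28898 carried 1 gene, 551 several and 15692 were not named here. The number of per-sample columns not used was 0. The 5 group means were fitted in R 4.3.3 with limma 3.58.1 over all probe sets, without covariates, in 9 comparisons fixed in the design and 2 added later (Control and Rapa 14 ppm, each vs WT-DR). Every adjusted p is from limma. Calling was checked on simulated data. The named genes were all members and, per list and comparison, up to 3 called genes with the smallest adjusted p, with *Nr1d1* and *Slco1b2* chosen after their values were seen. The members and lists were chosen with earlier results of these data known. Promoter windows came from RefSeq on GRCm38.p6, and TATAAA was added to the motifs later. As alternatives, each mouse was left out in turn, and the fit was repeated with the values per gene, on the compared groups alone, without dim probe sets, after another quantile normalization or centring on the median, with limma's trended and robust variance, with other fold change thresholds and with probe sets of a gene averaged.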

Additional observations from a re-analysis of the deposited data

Results flagged for a closer look

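In 3 of 40 groups of mice, 1 mouse lay far from the others by Dixon's criterion, which chance alone flags in about 1 of 20 groups. *Thrb* in DR 30% mouse 365 was 4.52, where the other 4 mice lay between 4.21 and 4.30. *Hr* in Rapa 14 ppm mouse 538 was 4.64, where the other 3 lay between 4.44 and 4.47, a gap of under 0.2 log2 units in a gene near the array median. *Serpina7* in Rapa 14 ppm mouse 535 was 11.18, where the others lay between 10.83 and 10.89, and 2 calls of *Serpina7* were lost without this mouse.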

How the results depend on the processing

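*Dio1* was called under all 32 alternatives in each comparison with WT-Control and in DR 30% vs Control. Counts of members called moved as follows. With no fold change threshold they were 2 in DR 30% vs Control, 3 in WT-DR vs WT-Control, 2 in Control vs WT-Control, 2 in Rapa 14 ppm vs DR 30% and 2 in Rapa 14 ppm vs WT-DR (*Thra* gained). With a fold change of at least 2 they were 1 in DR 30% vs WT-Control, 1 in DR 30% vs WT-DR and 0 in Rapa 14 ppm vs DR 30%. With only the groups compared they were 2 in WT-DR vs WT-Control (*Thrsp* at 0.59, adjusted p = 0.0259) and 1 in DR 30% vs WT-DR, and with the trended and robust variance 1 in DR 30% vs WT-DR. With the values per gene or the mean of all probe sets, Rapa 14 ppm vs DR 30% had 0. Leaving out 1 mouse gave 1 to 2 in Control vs WT-Control, 1 to 2 in Rapa 14 ppm vs WT-Control, 1 to 2 in DR 30% vs WT-DR, 0 to 1 in Rapa 14 ppm vs DR 30% and 2 to 4 in DR 30% vs WT-Control (2 without WT-Control mouse 404). It also gained *Dio1* in Control vs WT-DR without WT-DR mouse 421 and *Thra* in Rapa 14 ppm vs WT-DR without mouse 538 (-0.59, adjusted p = 0.00905). DR 30% vs WT-Control had 2 with the values per gene, where *Thra* and *Thrb* were lost and *Thrsp* was gained. In that comparison *Thra* was also lost after another quantile normalization and with the mean of all probe sets. The causes were not tested, apart from the thresholds. Of 2849 values of single genes under an alternative, 25 gained a call and 25 lost one, none reversed a call, and 97 of 2249 that were called neither way changed sign. No paired analysis was possible because the animal numbers differ between groups. The number of arrays limits the precision. *Thrb*, *Hr* and *Crym* lie near the array median, where fold changes can be understated, and this was not tested here.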
